A study of Homo sapiens with 11 samples.

Results

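The arrays described here are the 3 of a single hybridisation set, out of 11 arrays in the series, and they allow miR-520f to be set directly against miR-373. They were taken by their labels: miR-520f is sample 6, miR-373 is sample 7 and the mock control of the same set is sample 8. The choice was made with earlier results of these data known. PC-3 is a human prostate cancer line, and its cells received a miRNA duplex or, as mock, the transfection procedure without a duplex. RNA was taken at 24 h, each array received 150 ng, and each RNA was a mix from 4 transfections, so that the spread between cultures is not seen. One label of the miR-520f array, its title, reads miR-530f. The remaining labels name miR-520f, and the array is treated as such. The other 8 arrays hold dsEcad-640 (a duplex RNA named after the E-cadherin promoter, with the same seed as miR-373), miR-302a, miR-372 on 2 arrays, miR-520c and 3 further mocks, in sets 1 and 3. The keratin genes KRT8, KRT18 and KRT19 and the vimentin gene VIM, all known in PC-3, were well above background on all 3 arrays of set 2. The 2 probes of the leukocyte gene PTPRC were not well above background on any of them. KLK3, the prostate-specific antigen that PC-3 is known for lacking, was not above background with 2 of its probes, whereas the other probe was bright on all 3 arrays. The endothelial marker PECAM1 had 1 probe above background there, which was dim.

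A miRNA guides Argonaute proteins to messenger RNAs mainly through its seed, the bases 2 to 8 from its 5′ end, which pair with sites in the 3′ untranslated region and lower the messenger RNA and its translation. The family of miR-373 and miR-302a, to which miR-520f, miR-520c and miR-372 also belong, shares most of this seed and is known from embryonic stem cells and from tumours. miR-520f differs from the other family members used here: its seed is the family's shifted by 1 base. In the mature sequences below, taken from RefSeq for build GRCh38.p14, the capitals mark the seed.
miR-520f-3p: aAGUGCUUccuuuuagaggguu
miR-373-3p: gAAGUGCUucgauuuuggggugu
miR-372-3p: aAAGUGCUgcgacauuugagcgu
miR-302a-3p: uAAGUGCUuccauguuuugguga
miR-520c-3p: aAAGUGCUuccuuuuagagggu
miR-520f-3p lies on the plus strand at chr19:53682213-53682234 and miR-373-3p at chr19:53788748-53788770. The site complementary to the seed of miR-373, miR-372, miR-302a and miR-520c is AGCACTT, and that of miR-520f is AAGCACT. The sites overlap, so a single stretch of 8 bases can hold both. The 21 bases of miR-520c after its first are the first 21 of miR-520f, so these miRNAs differ by where the sequence starts and ends, whereas miR-373 also differs from miR-520f in the bases after the seed. The cells received duplexes, and their opposite strands differ as well. The study reports that the seeds of these strands are not the same and that they had little or no silencing activity.

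The direct difference, the log2 value under miR-520f minus that under miR-373, was available for 21462 probes, of which 16794 have a RefSeq name and cover 11579 genes. Its median was 0.0024 and its standard deviation over probes 0.35. Under miR-520f 197 probes (0.918%) were at least 2-fold lower and 275 probes (1.28%) were at least 2-fold higher than under miR-373, that is, at least 1 log2 unit apart. There is 1 array on each side, so none of these differences was tested. The scanner software gives each difference a standard error from its model of the spots, with a median of 0.21, and this covers neither cultures nor hybridisations. The 2 mock arrays of set 3, samples 9 and 11, give a measure of how far arrays of one label and one set lie apart: on the same probes their difference had a standard deviation of 0.35, and 308 probes (1.44%) lay 2-fold apart, against 472 (2.20%) between miR-520f and miR-373. Differences of 2-fold on single probes thus also occurred between arrays of the same label. Mock sample 1 and mock sample 8, which lie in different sets, differed far less, with a standard deviation of 0.16 over the probes well above background on every array.

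Probes of low level made up much of the higher group. Among the 5366 probes of lowest mean level, 160 were at least 2-fold higher under miR-520f and 80 lower, whereas among the 5366 brightest 12 were higher and 21 lower. The mock pair gave 69 and 49 among the dimmest probes and 26 and 17 among the brightest. The duplex arrays of set 2 had a higher floor than its mock. The lowest signal called well above background was 34.4 under miR-520f, 27.2 under miR-373 and 12.2 in mock sample 8, and spots with an outlier mark numbered 209, 196 and 67. The part of these differences in the calls was not tested.

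Mock sample 8 shows which duplex a difference came from. A duplex was counted as having moved alone when it lay at least 1 log2 unit from mock and the other lay less than 0.5 from it. Of the 197 lower probes, 86 were low under miR-520f alone and 44 were high under miR-373 alone. Of the 275 higher probes, 113 were high under miR-520f alone and 35 were low under miR-373 alone. Both duplexes lay at least 0.5 from mock, on opposite sides, for 19 of the lower and 34 of the higher probes, and on the same side for 12 and 26. The other 36 and 67 met none of these rules. Counted against mock by itself, miR-520f had 247 probes 2-fold below and 312 above, and miR-373 had 128 below and 103 above.

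**Figure D1:**
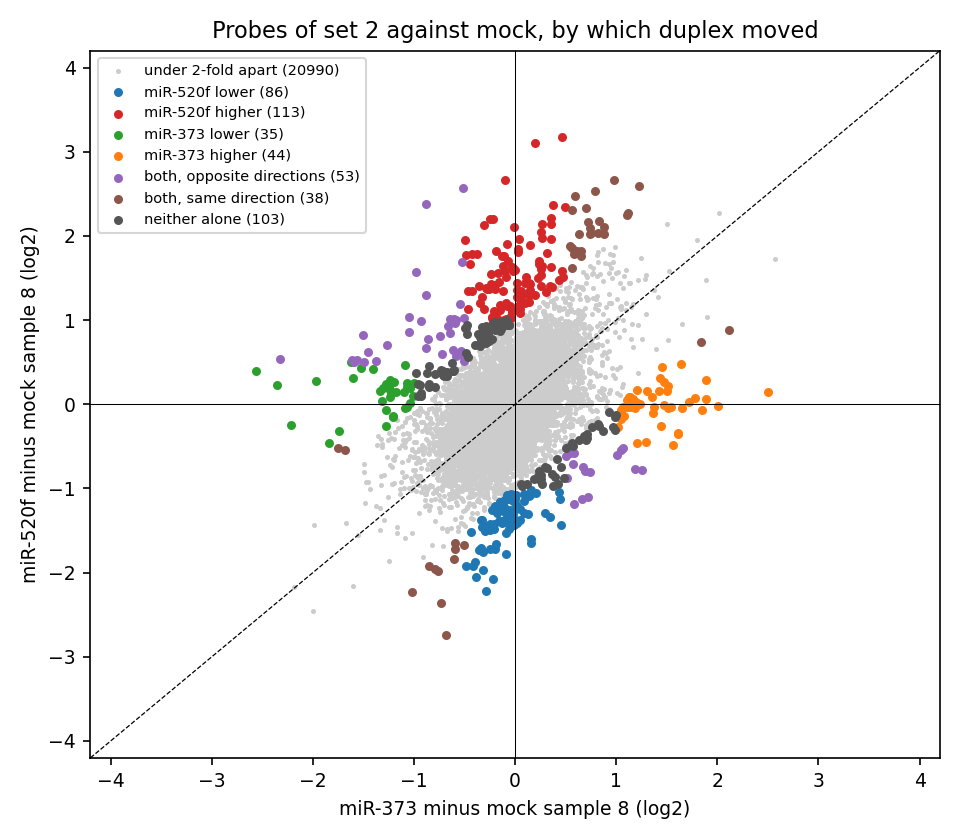
Each point is a probe of set 2, with miR-373 minus mock sample 8 on the horizontal axis and miR-520f minus mock sample 8 on the vertical axis, both in log2 units. Colours mark the 472 probes at least 2-fold apart between the duplexes by which duplex moved, and the dashed line marks equal change. The 113 probes high under miR-520f alone form the largest coloured group.

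Genes with several probes on the array show how far a difference was shared within a gene. Among the 13 genes with a probe low under miR-373 alone and other probes with a value, every other probe differed by at least 0.5 in the same direction in 10, and the median over their other probes was 1.05. Among the 29 such genes with a probe low under miR-520f alone this held for 12, with a median of -0.51. It held for only 4 of the 37 genes with a probe high under miR-520f alone, whose other probes had a median of 0.047, and for 1 of the 21 genes with a probe high under miR-373 alone, with a median of 0.11. No test was made of these shares. The probes of a gene share an array and its RNA, and some detect different transcripts.

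Of the 14 gene lists described, the median difference farthest from 0 was that of interferon-stimulated genes, which cells switch on after sensing foreign RNA or receiving interferon, together with the sensors of double-stranded RNA. Of 24 genes listed, 21 had a value, on 28 probes. Their median difference was 1.28, against 0.0024 over all probes. Of the 28 probes 16 were at least 2-fold higher under miR-520f and none 2-fold lower, where 1.28% of all probes were higher. At 1.5-fold, 23 probes of 18 genes were higher. The difference came mostly from the side of miR-373: the list's median was -0.82 under miR-373 and 0.37 under miR-520f, each minus mock sample 8. The list was chosen with earlier results of these arrays known.

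IFI44L, an interferon-induced gene, had a log2 value of 8.12 under miR-520f, 5.16 under miR-373 and 7.72 in mock, a direct difference of 2.97 ± 0.29 (error-model SE). The array of miR-373 stood well below the other 2, which lay close together. RSAD2, which is not on the list and encodes the antiviral protein viperin, was at 8.68, 5.82 and 8.15 in the same order. MX2, an interferon-induced GTPase, was at 9.75, 7.17 and 9.52, and its relative MX1 at 13.77, 11.63 and 13.24. Both antiviral genes thus were low under miR-373 and slightly above mock under miR-520f. OAS1, which makes the signal that activates RNase L, was at 9.20, 7.23 and 8.76. BST2, which is not on the list and encodes the virus-tethering protein tetherin, was at 9.14, 6.88 and 8.86. Of the RNA sensors, IFIH1 (MDA5) was at 8.81, 6.89 and 8.49 and RIGI at 9.95, 8.59 and 9.58. STAT2, a transcription factor downstream of the interferon receptors, differed by 0.13. EIF2AK2, the double-stranded RNA-activated kinase PKR, differed by 0.30 and 0.49 and was below mock under both duplexes. Both probes of IFI27 differed by 2.10 and 2.12, and both of IFIT2 by 1.52 and 1.26. The difference of IFIT2 did not come mostly from miR-373: minus mock its probes were at 1.02 and 0.65 under miR-520f and at -0.50 and -0.61 under miR-373. The single probe of the list below 0, at -0.14, carries the name IFI6 in the array's design but lies on chromosome 14, whereas the other probe of that name, on chromosome 1, differed by 1.41.

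Many interferon-stimulated genes are known to carry in their promoters the interferon-stimulated response element, with 2 GAAA repeats 2 bases apart. The letters GAAANNGAAA, or TTTCNNTTTC on the other strand, occur within 250 bases before to 50 bases after the start site in 11 of the 15 list genes with a promoter in the RefSeq table, which is 73.3%. They occur in 996 of 27305 promoters of all genes, or 3.65%. The stretches below show the matching letters, in capitals, in genes that differed by 0.30 to 2.97, read 5′ to 3′ along the gene in build GRCh38.p14.
IFI44L, chr1:78620276-78620301: ctagtgagGAAAAAGAAAgttagtgg
ISG15, chr1:1013376-1013401: tgcctcggGAAAGGGAAAccgaaact
IFIH1, chr2:162318688-162318713: agagaatcGAAACAGAAAccaaagtc
EIF2AK2, chr2:37156969-37156994: tccaagggGAAAACGAAActgagaac
IFIT1, chr10:89392499-89392524: agctttagTTTCACTTTCccctttcg
MX1, chr21:41420561-41420586: gcagaaatGAAACCGAAActgaattg
In IFIH1 and EIF2AK2 the match begins 21 and 6 bases before the annotated start, and in MX1 it begins 11 bases after it. A match of letters is a description and not a measured binding site.

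The arrays of sets 1 and 3 do not enter the direct difference, and they show how the list behaved under other duplexes. Each array was taken relative to its 75th percentile and to the mock of its own set, in set 3 to the mean of 2 mocks. The list's median was -0.50 under miR-302a, -0.86 and -1.01 on the 2 arrays of miR-372 and -0.81 under miR-373, and 25 to 27 of the 28 probes were below mock on each of these 4 arrays. Under dsEcad-640 the median was 0.076, and under miR-520c it was 0.76 with 26 of 28 probes above mock. miR-520f, with 0.40 and 23 of 28 above mock, lay on the side of miR-520c. miR-520c has the same seed as miR-373, so the direction of the list was not the same for all duplexes of that seed. On the same scale the list's medians were 0.69, 0.65, 0.57 and 0.54 on mock samples 1, 8, 9 and 11 against -0.36 under miR-373 and 0.91 under miR-520f, so that miR-373 lay below all 4 mock arrays and miR-520f above all 4. Mock samples 1 and 8 lay so close over all probes that they may hold one RNA, which the labels do not settle, and they may not count as separate mocks. The mock pair of set 3, sample 9 minus sample 11, had a median difference of -0.43 over the list. IFI16, which is not on the list, differed by -2.33 and -2.25 between these mocks, more than between the duplexes.

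A second group was lower under miR-373 than under miR-520f and below mock under every other common-seed duplex, miR-520c included. Under miR-520f TMEM64 and KLHL8 were near mock, whereas DRAM1, SEC23A and 1 probe of LATS2 lay 0.32 to 0.50 below it. DRAM1 (named DRAM on the array), a p53-induced gene of the autophagy pathway, was at 9.35 and 9.43 on its 2 probes under miR-520f, 7.94 and 8.06 under miR-373 and 9.67 and 9.90 in mock. On the other 5 common-seed arrays the 2 probes lay 1.41 to 2.25 below the mock of their set. Fitted over sets 1 and 3 with limma, without any array of set 2, DRAM1 fell by 2.00 ± 0.15 (SE) and by 1.64 ± 0.16, with adjusted p-values of 0.0142 and 0.0266. The fit treats the different common-seed duplexes as a single condition. Its mock sample 1 may hold the same RNA as mock sample 8, so the fit may not be fully separate from set 2. TMEM64, which encodes a membrane protein, differed between miR-520f and miR-373 by 1.32, 1.36 and 1.499 on its 3 probes, and was 1.18 to 1.34 below mock under miR-373 and 0.04 to 0.16 above it under miR-520f. KLHL8, of the Kelch-like family of ubiquitin ligase adaptors, differed by 1.36 and 1.05. LATS2, a kinase of the Hippo pathway and a reported target of this seed, was at 7.91 and 7.85 on its 2 probes under miR-520f, at 7.10 and 6.79 under miR-373 and at 8.42 and 8.01 in mock. SEC23A, a coat protein of vesicles that leave the endoplasmic reticulum, stayed under 2-fold, with 0.84 on both probes: miR-373 was 1.26 and 1.32 below mock and miR-520f 0.42 and 0.47. In the limma fit LATS2 changed by -1.23 ± 0.13 and -1.25 ± 0.16 (adjusted p = 0.0296 and 0.0391), and SEC23A by -1.47 ± 0.11 and -1.70 ± 0.17 (adjusted p = 0.0142 and 0.0279). In the same fit KLHL8 changed by -1.04 and -1.06 but did not pass (adjusted p = 0.0627 and 0.0780). TMEM64 passed on 2 of its 3 probes (adjusted p = 0.0391 and 0.0395) and not on the third (adjusted p = 0.0962). Apart from LATS2, the genes of this group were named after their values were seen, those on the arrays of sets 1 and 3 included. For them the low values in the limma fit follow in part from the choice and are no separate support.

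**Figure D2:**
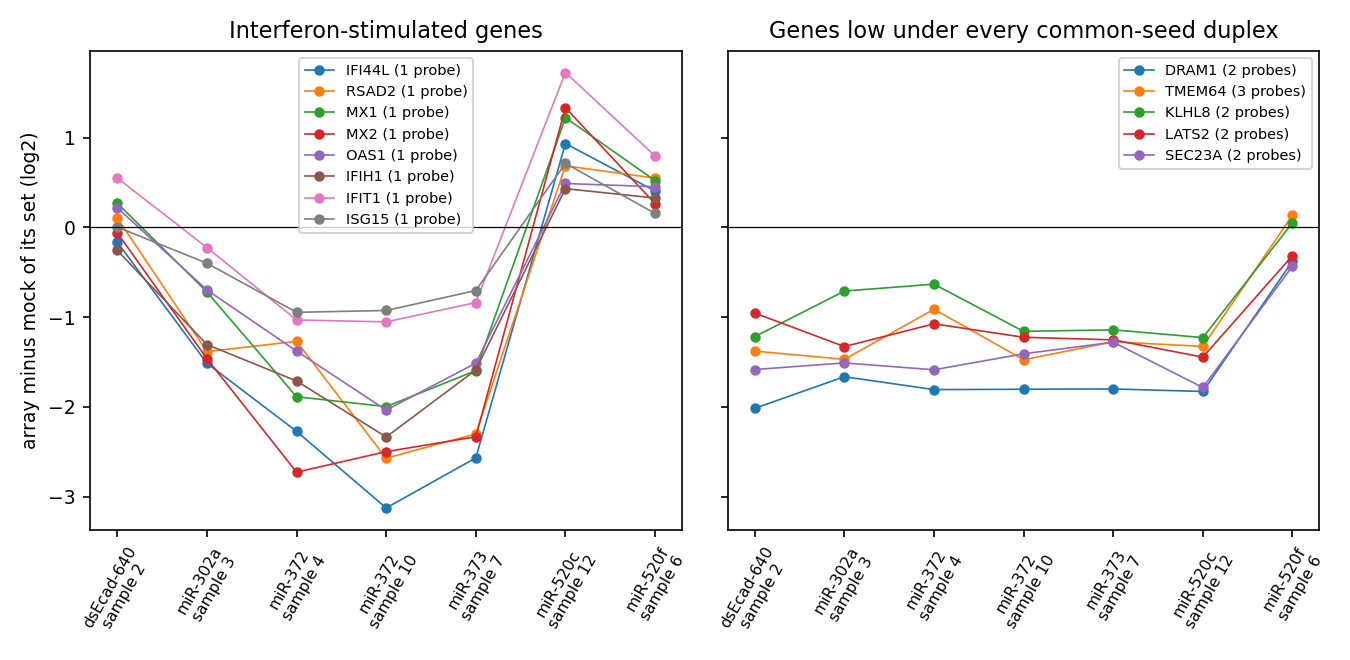
The vertical axis gives each duplex array minus the mock of its set in log2 units, with 1 point per gene and array (the mean over its probes), and the lines only join the points of a gene. Interferon-stimulated genes, on the left, were low under miR-302a, miR-372 and miR-373 and above mock under miR-520c and miR-520f, whereas DRAM1, TMEM64, KLHL8, LATS2 and SEC23A, on the right, were low on all common-seed arrays and highest under miR-520f.

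The 4 groups of probes that moved under 1 duplex alone differed in what they did on the other common-seed arrays. The 35 probes low under miR-373 alone had medians of -0.33 under dsEcad-640, -0.81 under miR-302a, -0.91 and -1.50 under miR-372 and 0.027 under miR-520c, and 14 (40.0%) were below mock on all 5 arrays, compared with 15.5% of all probes. Outside the interferon list 29 of the 35 remained, with a median of -0.41 under miR-520c, while the 6 probes inside it had 0.81. Of these 35, 5 passed the limma test as lower over sets 1 and 3, where 85 of 28826 probes (0.295%) fell and 84 (0.291%) rose. They are the 2 probes of DRAM1, 2 of TMEM64 and 1 of LATS2. Arrays of set 1 were compared with mock sample 1, which may hold the same RNA as mock sample 8. Leaving out 1 array took the count that fell from 85 to 0 for 7 of the 8 arrays and to 277 without miR-372 sample 4.

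The 86 probes low under miR-520f alone were weakly low elsewhere, with medians of -0.31, -0.16, -0.22, -0.084 and -0.34 under dsEcad-640, miR-302a, the 2 arrays of miR-372 and miR-520c. Of them 41 (47.7%) were below mock on all 5 arrays, compared with 15.5% of all probes. By at least 0.5, this held for 5 of the 86 and for 9 of the 35 probes low under miR-373 alone. It held for 270 of 21433 among all probes. In the limma test 1 of the 86 passed as lower, where 0.295% of 28826 probes fell. The 113 probes high under miR-520f alone and the 44 high under miR-373 alone had medians near 0 on the other arrays, except on miR-372 sample 4, where they were 0.42 and 0.61. On that array 88.2% of probes were called well above background, compared with 54.4% to 72.9% on the other 10, and the part of this in the values was not tested.

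**Figure D3:**
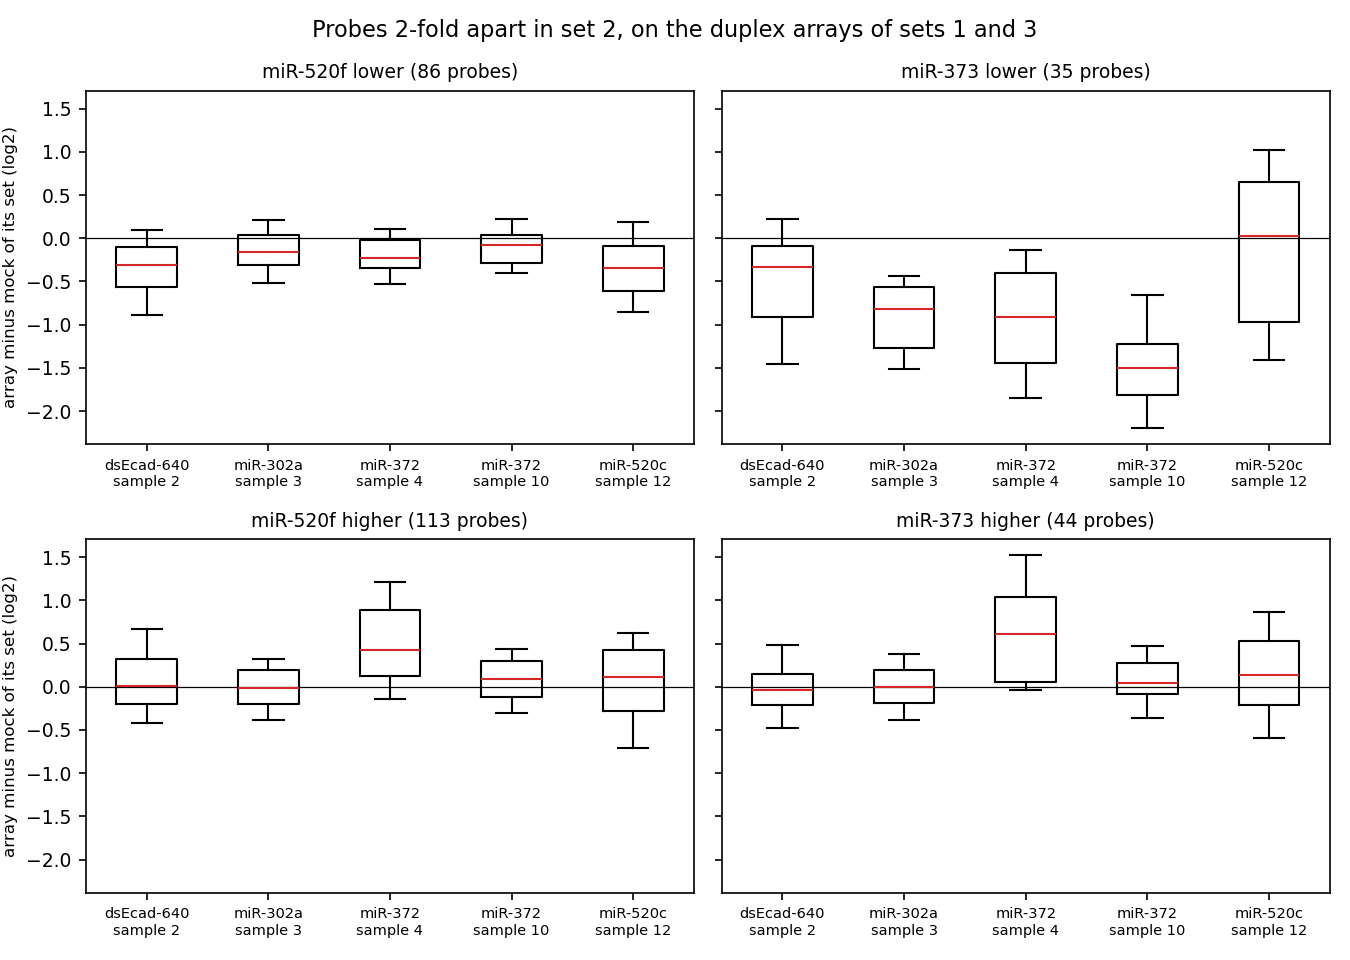
Boxes show the quartiles and whiskers the 10th to 90th percentiles of array minus mock of its set, in log2 units, on the 5 common-seed arrays of sets 1 and 3, for the 4 groups of probes that moved under 1 duplex alone in set 2. The 35 probes low under miR-373 alone sit below 0 under miR-302a and miR-372 and spread to both sides of 0 under miR-520c. The groups high under miR-520f or miR-373 alone lie above 0 on miR-372 sample 4, with medians of 0.42 and 0.61.

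Of the genes with several probes, 7 were at least 2-fold lower under miR-520f than under miR-373 on every probe and 13 at least 2-fold higher. The 13 were AKR1C1, DLX2, DTX3L, IFI16, PGM2L1, SAMD9, TET1 and USP18 besides DRAM1, KLHL8, TMEM64, IFI27 and IFIT2, and the 7 were ZDHHC24, ARF5, UBXN1, FARSB, CENPF, CFL2 and USP12. The genes of both groups were picked after their values were seen. ZDHHC24, a palmitoyltransferase, was at 8.12 and 7.51 on its 2 probes under miR-520f, at 10.05 and 8.55 under miR-373 and at 10.33 and 8.76 in mock. miR-520f was lowest on both probes, and miR-373 lay 0.29 and 0.21 below mock. ARF5, a small GTPase of Golgi traffic, differed by -1.43 and -1.37 and was 0.13 and 0.09 above mock under miR-373. UBXN1, a cofactor of the segregase p97, differed by -1.11 and -1.22, and FARSB, a subunit of the phenylalanine tRNA synthetase, by -1.02 and -1.26. CENPF, a kinetochore protein, was at 12.17 on its brighter probe under miR-520f, 13.31 under miR-373 and 13.43 in mock. CFL2, which severs actin filaments, was below mock under both duplexes, by 1.92 and 1.72 under miR-520f and by 0.42 and 0.59 under miR-373. USP12 is a deubiquitinase, and its probes differed by -1.23 and -1.76. On the arrays of sets 1 and 3 CFL2 lay 0.67 to 1.42 below mock, while UBXN1 and FARSB stayed between -0.52 and 0.21, against -1.20 to -1.06 under miR-520f.

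Among the 10 named genes of lowest difference, TMEM14A, a mitochondrial membrane protein, was at 9.05 under miR-520f, 11.11 under miR-373 and 11.79 in mock and was low under all duplexes. ABLIM3, which binds actin, was at 10.22, 12.09 and 12.30 on 1 probe and differed by -0.38 on the other. MCL1, an antiapoptotic member of the BCL2 family, differed by -1.89 on 1 probe, by -0.72 on the brightest and by -0.31 on the third. SLC25A23, a mitochondrial carrier outside these 10, differed by -1.65 and -1.67 on 2 probes and by -0.74 on the third. The other 6 of the 10 besides ZDHHC24 were CEP162 (KIAA1009 on the array), ZNF414, DNAJC18, ZNF34, CDKAL1 and SH3RF3 (SH3MD4), with differences from -2.35 to -1.82. All 6 were dim under miR-520f, between 5.36 and 6.13, and all were above mock under miR-373. Where these had another probe it did not follow: ZNF414 had -0.13, DNAJC18 0.04 and CDKAL1 0.17.

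Of the 10 highest, IFI44L, RSAD2 and MX2 are interferon-induced. The other 7 were IQCN (KIAA1683), SP140, PPM1J, INSL3, RAP1GAP, KCNK12 and ASS1, with differences of 2.45 to 3.26. IQCN, for example, was at 8.14 under miR-520f, 4.87 under miR-373 and 5.76 in mock. All 7 were above mock under miR-520f and between 4.87 and 6.05 under miR-373, in the lowest part of the range of levels. INSL3 had a second probe at -0.18 and SP140 one at 0.42. HMGA2, an architectural chromatin protein picked after its values were seen, was at 11.49 under miR-520f, 9.61 under miR-373 and 9.73 in mock on 1 probe, but a second probe differed by 0.26.

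A further 702 probes were well above background under miR-520f but not under miR-373, and 2101 the other way. For these only a bound on the fold can be given: the bright level against the higher of the dim probe's own signal and the lowest signal called above background on its array. By these bounds 415 were at least 2-fold higher and 438 at least 2-fold lower under miR-520f. MGAT5B, a glycosyltransferase, was at least 21391-fold, STON2 at least 23.1-fold, BTK at least 14.8-fold and TTC33 at least 14.3-fold higher under miR-520f. ENDOU was at least 21.4-fold, CNOT4 at least 15.95-fold, ECEL1 at least 14.4-fold and ACP3, the prostatic acid phosphatase, at least 11.3-fold lower. In each of these 8 genes the bright array was the brightest of all 11. Each of these 8 bounds rests on a single bright array. For MGAT5B the log2 value over the 75th percentile was 10.2 under miR-520f and between -7.7 and -2.9 on every other array. For BTK it was -0.45 under miR-520f and -4.46 or lower on every other array. For ENDOU it was 0.48 under miR-373 and -4.79 or lower on every other array. Whether faulty spots gave the bright values of the 8 genes was not tested.

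The seed sites were read in a list of probes that the study chose as decreased on these same arrays, so the list is no independent evidence of direction. Every probe of the list lay below mock sample 8 under miR-373, whereas some lay above it under miR-520f. A choice that is low on the side of miR-373 only can raise the direct difference, so the values above 0 in this list may follow in part from the choice. All of its 323 probes are marked with AGCACTT in the 3′ untranslated region and 108 of them with AAGCACT as well. Probes with both sites had a median difference of -0.15 (quartiles -0.34 and 0.12), with 69 of 108 (63.9%) below 0. Probes with the common site only had a median of 0.065 (quartiles -0.13 and 0.29), with 88 of 215 (40.9%) below 0, compared with 49.5% of all probes. Against mock, probes with both sites were at -0.53 under miR-520f and -0.36 under miR-373, and those with the common site only were at -0.24 and -0.28. The mock pair differed on both kinds alike, by 0.078 and 0.069. At 0.5 or more, 14 of the 108 probes with both sites were lower under miR-520f and 5 higher. With the common site only, 9 of 215 were lower and 24 higher. Over all 21462 probes, 971 were lower and 1319 higher by this measure. Of the 108, 3 were at least 2-fold lower (CYB5R4, C9orf78 and PBK), where 0.918% of all probes were. CXCL1 alone was 2-fold higher, where 1.28% of all probes were. Of the 215 without the AAGCACT mark, 3 were 2-fold higher (LATS2, SCARA5 and LRATD1) and 2 were 2-fold lower (SNPH and ACTR1B). Both counts lie near the shares of all probes, 1.28% and 0.918%. CYB5R4, a cytochrome b5 reductase, was at 5.93 under miR-520f, 7.15 under miR-373 and 7.91 in mock. PBK, a mitotic kinase, was at 10.09, 11.15 and 11.74, and SCARA5, a ferritin receptor, at 6.85, 5.72 and 7.40. A brighter probe of SCARA5 that is not on the study's list differed by -0.15. The list of increased probes showed no such split, with medians of 0.022 for the 30 probes with AAGCACT and 0.022 for the 84 without.

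The other gene lists lay closer to 0. Of inflammatory genes controlled by NF-kappaB, 17 probes of 16 genes had a median of 0.56, with 3 at least 2-fold higher and none lower, where 1.28% and 0.918% of all probes were. IL6 was at 6.90 under miR-520f, 5.003 under miR-373 and 6.38 in mock, and the chemokine gene CXCL2 differed by 1.499 and 0.77 on its probes and CXCL1 by 1.14. The mock pair of set 3 had a median of -0.99 on this list, which is larger in size than the difference between the duplexes. Mock sample 11 alone stood apart there, with a list median of 1.49 against 0.096 to 0.22 on the other 3 mocks. Genes of ATF4 and endoplasmic reticulum stress had a median of 0.27, with 7 of 31 probes below 0, compared with 49.5% of all probes, and the mock pair had -0.26. ATF3 differed by 1.02 and TRIB3, which restrains AKT, by 0.80 and 0.45. All 28 probes of 24 mitosis genes lay below 0, as 49.5% of all probes did, with a median of -0.25, of which CENPF had 2 probes past 2-fold and cyclin B1 (CCNB1) had -0.76. The kinase PLK1 had -0.57 and -0.36. The mock pair had 0.13 on this list. S phase genes had a median of -0.14, with 20 of 30 probes below 0, compared with 49.5% of all probes, and none 2-fold apart. UHRF1 had -0.68 and -0.56.

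Genes of TGF-beta, activin and BMP signalling had a median of 0.22 over 44 probes, with 33 above 0 and 11 below. Of all probes 49.5% lay below 0. ACVR2B, an activin receptor, was at 8.76 under miR-520f, 7.39 under miR-373 and 6.17 in mock on 1 probe and differed by 0.79 and 0.64 on the other 2. All 3 probes were above mock on every duplex array of the series. TGFBR2, the type II TGF-beta receptor, was below mock under both, by 1.18 and 0.80 under miR-520f and by 1.48 and 1.12 under miR-373. Hippo kinases and YAP targets had a median of -0.14 with 3 of 30 probes 2-fold lower and 1 higher, where 0.918% and 1.28% of all probes were, but the probes of a gene parted: YAP1 had -1.15 on a dim probe and 0.01 on a bright one, and WWTR1 ranged from -1.15 to 0.55. The reported targets of the seed had a median of 0.22 over 26 probes (0.04 when the probes of a gene were averaged), -0.35 under miR-373 and -0.22 under miR-520f. MBD2, which binds methylated DNA, was lower under miR-520f (10.69) than under miR-373 (11.31), both well below mock (12.56), whereas DAZAP2 differed by 0.55 and LATS2 by 0.81 and 1.06. NKG2D ligands and antigen presentation genes had a median of 0.13 and were below mock under both duplexes, with medians of -0.34 and -0.45. The medians were 0.22 for G1 regulators, 0.041 for E-cadherin and epithelial or mesenchymal genes, 0.012 for cholesterol genes, 0.00025 for the BCL2 family and -0.013 for the small RNA machinery, in which no probe was 1.5-fold apart.

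Genes that the study followed by quantitative PCR can be read only in part. E-cadherin (CDH1) was at 6.05 under miR-520f, 5.49 under miR-373 and 5.17 in mock, a difference of 0.56 ± 0.12 (error-model SE), and the mock pair of set 3 differed by 0.78 on this probe. ZEB1, the repressor of E-cadherin that is central to the study, and RAB31 were not well above background on either duplex array, so no fold is given. MED8, a Mediator subunit, differed by 0.26 and 0.20 and was below mock under both. MTPN, which encodes myotrophin, differed by -0.17, -0.17 and 0.05, FERMT2 by 0.49, and the control genes GAPDH and HINT1 by 0.06, -0.02 and 0.05.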

How the data were processed

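RNA from 11 arrays was hybridised in 1 colour to an Agilent human array with probe coordinates of hg18. The authors deposited scanner output of Feature Extraction 10.5.1.1, whose processed signal is an intensity with the background subtracted, and a table of log2 values normalized within each set by a method not given in the sources used here. In set 2 the deposited log2 table holds only probes well above background on all 3 arrays. The direct difference used this table. Comparisons across sets used log2 processed signals minus the 75th percentile of each array, outlier spots left out and spots of a probe averaged. Probes were named through RefSeq accessions or symbols. Sets 1 and 3 were fitted with limma 3.58.1 in R 4.3.3 (common-seed duplexes against mock, set as a term, probes well above background on at least 4 of 8 arrays, Benjamini-Hochberg adjusted p-values); the fit was tested on simulated data. Mock arrays may share a culture, so p-values measure the spread between arrays. The number of arrays limits the precision. Site marks came from the study's supplementary list. Named genes were the 10 lowest and highest, the 4 largest bounds per direction, the genes followed by quantitative PCR and list members at least 1.5-fold apart; other genes, among them STAT2, EIF2AK2, PLK1, TGFBR2, DAZAP2, SLC25A23 and those named by seed site, were chosen after their values were seen. The arrays, genes and lists were chosen with earlier results of these data known. Alternatives were other normalizations, filters, mean values per gene, other mock references and leaving out each array of the limma fit. Results of some genes are not reported here.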

Additional observations from a re-analysis of the deposited data

Results flagged for a closer look

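Over the 4 mock arrays, 3 of 14 list medians had 1 array standing apart from the rest, where about 1 in 20 would by chance, and the lists share the same 4 arrays. The NF-kappaB list had a median of 1.49 on mock sample 11 after the 75th percentile of its array was subtracted, and 0.096 to 0.22 on the other 3. The list of ATF4 and endoplasmic reticulum stress genes had 0.41 on that array and -0.27 to -0.19 on the other 3. S phase genes had 2.39 there and 2.23 to 2.25 on the other 3. In all 3 lists the array was mock sample 11, which is in set 3 and does not enter the direct difference of miR-520f and miR-373, but is 1 of the 2 arrays of the mock pair set beside it.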

How the results depend on the processing

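The numbers of probes 2-fold lower and higher, 197 and 275, were 75 and 106 after normexp background correction with an offset of 50, which compresses dim probes, 95 and 128 when the probes of a gene were averaged, and 117 and 115 without the 5366 probes of lowest level. They were 647 and 688 when probes above background on at least 1 array entered with the dim value raised to the floor. The last 2 settings were added after seeing the data. The other planned settings stayed within 1.5 times, and the filter settings left the counts as they were because the deposited table holds no dimmer probes. The median of decreased probes with AAGCACT ranged from -0.15 to -0.11 and that without from 0.062 to 0.074 over 7 alternatives. With the mean of the 4 mocks as reference, the lower probes that moved under both duplexes in the same direction numbered 25 in place of 12. Of 56 list medians 4 moved: interferon 0.99 and NF-kappaB 0.37 after normexp, and reported targets 0.04 and BCL2 0.12 with averaged probes. All 468 values of the 156 single probes under other normalizations kept their direction, and 41 moved, all after normexp. The limma counts depended on nearly every setting: 8 fell and 1 rose without the set term, 287 and 255 after normexp, 238 and 246 with probes above background on all 8 arrays, and 0 and 0 without a filter (1649 and 2197 at an unadjusted p under 0.05). Leaving out 1 array gave 0 to 277 that fell and 0 to 201 that rose, with 277 and 201 without miR-372 replicate 1 (sample 4) and 0 without any other array (1373 to 1843 fell and 1743 to 2360 rose at an unadjusted p under 0.05), and the cause was not tested. No paired analysis was possible because each duplex of set 2 has 1 array. Dim signals limit set 2: ZEB1 could not be measured there.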
